A study of Mus musculus with 44 samples.

Results

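H3K4me2 at transcription start sites was compared between HPC7 cells carrying mutant Snai1 and HPC7 cells carrying wild-type Snai1. The comparison used 6 of the 44 samples of the series, 3 libraries per construct, and every gene window in the deposited table of raw counts. HPC7 is a mouse haematopoietic progenitor line that grows in stem cell factor, here at 100 ng per ml. The mutant cells held an MSCV-IRES-GFP retroviral vector with Snai1 cDNA in which alanine replaces phenylalanine at residue 5, a change that impairs the interaction with Lsd1. The wild-type cells received the same vector with unchanged Snai1, and a further 3 H3K4me2 libraries came from cells with the vector and no insert. All cells were sorted for GFP 1 week after transduction and expanded, so each group is a sorted pool, with Snai1 from the vector in the mutant and wild-type cells. The labels name no deletion of the cells' own Snai1 or Kdm1a. Replicate numbers come from the labels, which do not say whether replicates are separate transductions or cultures. The p-values below therefore rest on the spread between these samples, which may be technical. In the main fit that spread came from the trend over windows and not from each window itself.

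The libraries held between 10260493 and 18199945 counts in mutant cells and between 9828505 and 17553273 in wild-type cells. Most of 10 chosen progenitor markers carried strong H3K4me2 in both groups. For 9 of 10 (Kit, Cd34, Gata2, Tal1, Lyl1, Runx1, Fli1, Myb and Meis1) the mean was 116 to 229 CPM, counts scaled to a common library total, in mutant cells and 117 to 225 CPM in wild-type cells. Lmo2, the tenth, averaged 44.8 CPM in mutant cells and 18.7 CPM in wild-type cells. The 10 belong to a stem and progenitor list of 30 windows, and not all of its members carried the mark strongly. Erg, Prdm16, Hoxa9 and Nkx2-3 averaged 3.55 to 4.92 CPM in mutant cells and 2.28 to 3.53 CPM in wild-type cells. Olfactory and vomeronasal receptor windows, which are silent in blood cells, had medians of 1.45 to 2.77 CPM in mutant libraries and 1.53 to 1.74 CPM in wild-type libraries.

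Methylation of histone H3 at lysine 4 marks regulatory DNA in use. The dimethyl form covers active and poised promoters and enhancers, and the monomethyl form is broadest at enhancers. Lsd1, encoded by Kdm1a, removes mono- and dimethyl groups from this residue and works with the corepressor CoREST. Snai1 is a zinc finger repressor, best known for silencing epithelial genes when cells become mesenchymal. Its N-terminal SNAG domain binds Lsd1, as does that of the blood regulators Gfi1 and Gfi1b, and its zinc fingers read the E-box CAGGTG. The comparison asks where the mark differs when the interaction of added Snai1 with Lsd1 is impaired.

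The constructs differed in opposite ways between replicate 1 and replicates 2 and 3. After correction for whole-chromosome shifts, 27.0% of 25463 windows had the same sign of the difference in replicate 1 and in the summed replicates 2 and 3. Across these windows the correlation of the 2 differences was -0.38 (Pearson) and -0.45 (Spearman), and over 13295 windows with at least 10 CPM it was -0.06 and -0.09, with 30.6% of the same sign. Windows are not independent replicates, and these values are descriptions. Libraries of one construct differed little between replicates 2 and 3, with a variance 1.23 to 2.30 times that of counting in 3 pairs, and much between replicate 1 and the others, at 10.2 to 15.1 times in 6 pairs.

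The size of the opposition differed with the level of the window. With windows sorted by mean CPM into 8 equal bins, the lowest 3 bins had median log2 differences, mutant over wild type, of -0.28 to -0.26 in replicate 1 and 0.61 to 0.65 in replicates 2 and 3. The highest 4 bins had 0.05 to 0.06 in replicate 1 and -0.19 to -0.12 in replicates 2 and 3. The ratio of the median CPM of housekeeping windows to that of silent windows moved the same way. It was 62.7, 27.4 and 28.2 in mutant replicates 1, 2 and 3, against 49.8, 58.3 and 50.4 in wild-type replicates 1, 2 and 3, and 52.5, 45.5 and 38.7 with the empty vector. Mutant replicates 2 and 3 thus had the lowest contrast of signal over background of the 9 libraries, and mutant replicate 1 the highest. The part of this contrast in the results on single windows was not tested beyond the level-dependent scaling given with the calls.

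**Figure D1:**
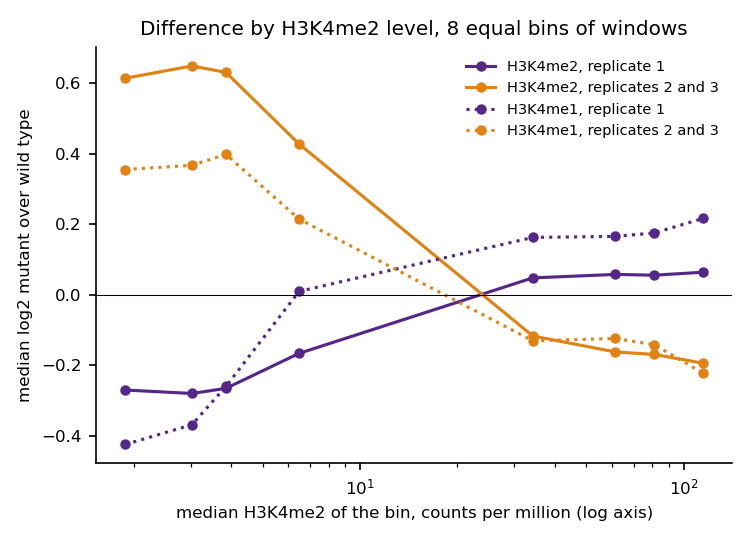
Median log2 difference (vertical axis, mutant over wild type) in 8 equal bins of windows against the median H3K4me2 of the bin (horizontal axis, CPM, log scale). Solid lines are H3K4me2 and dotted lines H3K4me1, in replicate 1 and in replicates 2 and 3. The solid line of replicates 2 and 3 lies between 0.61 and 0.65 in the lowest 3 bins and that of replicate 1 between -0.28 and -0.26.

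Few start-site windows passed in a fit over both replicate sets with a term for the set, which asks for a difference common to them. Of 26018 windows tested, 96 were higher and 85 lower in mutant cells (edgeR quasi-likelihood F-test, Benjamini-Hochberg adjusted p under 0.05, 0.696% of windows tested), and 824 had an unadjusted p under 0.05. Higher windows made up 0.369% and lower windows 0.327% of those tested. Among the 181, 133 (80 higher, 53 lower) had the same sign in both replicate sets, against 27.2% of all windows tested. In 101 (64 higher, 37 lower) the 3 mutant libraries did not overlap the 3 wild-type libraries, against 8.46% of all windows (6.35% mutant higher, 2.11% mutant lower). Replicates 2 and 3 carried most of the size. The median log2 difference of the higher windows was 0.21 in replicate 1 and 2.38 in replicates 2 and 3, and that of the lower windows was -0.05 and -1.05. In 113 of the 181 the difference in replicate 1 was under 0.25 in size. A fit of replicates 2 and 3 alone gave 7248 higher and 6345 lower of 25787 windows, from libraries that differ little within a construct.

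The calls depend on how the spread and the scale were set. With 2 residual degrees of freedom the fit drew the spread of every window from the trend over windows (infinite prior degrees of freedom), and a scaling that removed the dependence on level left 0 higher and 0 lower, with 1013 windows at an unadjusted p under 0.05. Folds moved little under that scaling, to 1.93 for Gypc (2.07 before), 1.27 for Adgre4 (1.22) and -1.13 for Cpa3 (-1.19). The prior degrees of freedom became 6.21, so the spread assigned to each window changed as well, and which of these changes ended the calls was not tested. In the fit without mutant replicate 1 they were 7.36, with 1 residual degree of freedom, so the spread changed there too. Folds in that fit were 3.32 for Gypc, 1.41 for Adgre4, -1.14 for Cpa3 and 0.90 for Pilra (1.35 before). Whether a call lost in that fit reflects the values of the library or the changed spread was not tested. Without mutant replicate 1, 9 were higher and 20 lower, without wild-type replicate 1, 257 and 362, and without empty-vector replicate 1, 39 and 25.

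**Figure D2:**
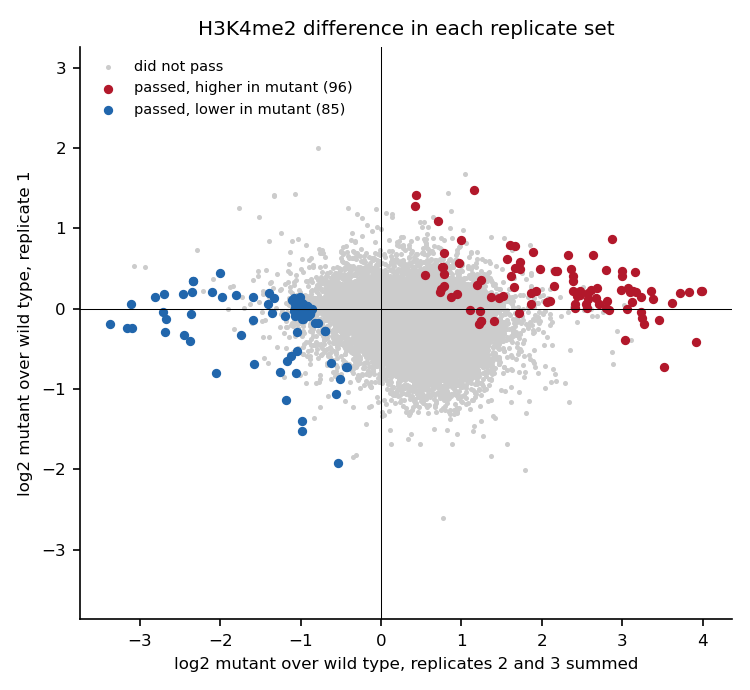
Each point is a window, with the log2 difference, mutant over wild type, in replicates 2 and 3 (horizontal axis) and in replicate 1 (vertical axis). The 96 windows that passed and were higher in mutant cells and the 85 that were lower are coloured, and most lie near 0 on the vertical axis.

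A small group of windows differed by at least 0.5 on the log2 scale in the same direction in both replicate sets. This limit was chosen after the values were seen. It kept 30 of the 181 windows, 16 higher and 14 lower in mutant cells. Differences of the higher 16 ran from 0.50 to 1.47 in replicate 1 and from 0.71 to 2.88 in replicates 2 and 3, and the sizes of the lower 14 from 0.53 to 1.92 and from 0.51 to 2.06. The 2 IgG libraries of wild-type cells had 22.9 to 89.8 CPM at these 30 windows with a median of 41.5, on column totals. The IgG libraries were scaled apart from the marks, and their levels are not comparable with those of H3K4me2.

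Promoters are shown for 4 of these windows, the lower and the higher one with the smallest p and 2 that hold the Snai1 E-box. Letters are RefSeq sequence of GRCm38.p6, from upstream of the annotated start to just inside the transcript, 300 bases each, and capitals mark CAGGTG or its other strand CACCTG. Cyp11a1 and Tom1l1 have 2 promoters each in the table, and the one with the hexamer is shown. Cyp11a1 (chr9:57997774-57998073, plus strand) and Tom1l1 (chr11:90687552-90687851, minus strand) hold it, and Cpa3 (chr3:20242132-20242431, minus strand) and Adgre4 (chr17:55749734-55750033, plus strand) do not.
Cyp11a1: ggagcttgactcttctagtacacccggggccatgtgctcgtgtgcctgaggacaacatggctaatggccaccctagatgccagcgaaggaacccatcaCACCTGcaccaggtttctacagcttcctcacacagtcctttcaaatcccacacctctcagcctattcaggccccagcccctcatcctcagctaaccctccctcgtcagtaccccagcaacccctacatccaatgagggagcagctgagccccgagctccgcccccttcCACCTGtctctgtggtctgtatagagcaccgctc
Tom1l1: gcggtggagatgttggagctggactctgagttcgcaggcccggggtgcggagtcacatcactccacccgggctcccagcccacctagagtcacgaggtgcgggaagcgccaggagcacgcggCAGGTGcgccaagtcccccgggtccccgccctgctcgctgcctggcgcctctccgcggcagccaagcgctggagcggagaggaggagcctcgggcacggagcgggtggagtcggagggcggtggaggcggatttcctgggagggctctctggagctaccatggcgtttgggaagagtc
Cpa3: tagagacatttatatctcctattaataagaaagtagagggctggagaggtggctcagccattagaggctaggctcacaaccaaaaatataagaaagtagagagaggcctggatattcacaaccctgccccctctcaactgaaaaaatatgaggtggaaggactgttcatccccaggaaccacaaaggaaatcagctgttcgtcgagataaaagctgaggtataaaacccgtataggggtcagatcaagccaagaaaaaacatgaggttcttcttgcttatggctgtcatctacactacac
Adgre4: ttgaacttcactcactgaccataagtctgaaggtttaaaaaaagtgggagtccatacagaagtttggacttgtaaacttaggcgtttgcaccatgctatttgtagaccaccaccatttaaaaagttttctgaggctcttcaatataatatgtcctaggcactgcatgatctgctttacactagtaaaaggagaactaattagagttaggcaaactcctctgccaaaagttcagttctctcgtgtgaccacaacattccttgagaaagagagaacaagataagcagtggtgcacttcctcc

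Cyp11a1 has the hexamer 2 times, and Tom1l1 has it 1 time. It was present in 20.2% of the 32851 promoters in the table. Counted per gene, over the start sites of each, it was present at 13 of 71 higher and 11 of 64 lower windows with a promoter, against 22.3% of the 17983 tested windows that have one. A match is a description of letters and not a binding site. In the deposited peak lists the Cyp11a1 promoter met a mutant Snai1 peak (chromosome 9, 57997939 to 57998165, 5.52-fold enrichment in the authors' list), and the nearest wild-type peak lay 166366 bases from its start site. The nearest mutant peaks lay 11755, 21852 and 37281 bases from the start sites of Tom1l1, Cpa3 and Adgre4.

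Cpa3, the carboxypeptidase of mast cell granules (gene ID 12873, chromosome 3, 20215616 to 20242209), gave the smallest p among the lower windows. Its H3K4me2 was 34.4, 84.6 and 91.8 CPM in mutant replicates 1, 2 and 3, against 88.5, 167 and 181 CPM in wild-type replicates 1, 2 and 3. The groups overlap only in that mutant replicate 3 exceeds wild-type replicate 1, and within each replicate set the mutant libraries are lower. The empty-vector libraries, at 34.1, 95.0 and 104 CPM, lie near the mutant ones. The log2 difference was -1.19 (SE 0.125, edgeR adjusted p = 1.89e-17), with -1.39 in replicate 1 and -0.98 in replicates 2 and 3. H3K4me1 at the same window gave 0.14 (edgeR adjusted p = 1.0). Cpa3 passed under 11 of 14 other ways of processing, with log2 differences from -1.33 to -1.06. Those it missed include level-dependent scaling (-1.13, edgeR adjusted p = 0.483). Of the 9 libraries left out in turn, mutant replicate 1 was the only one without which it did not pass. The fold held in that fit (-1.14), whose spread was also set differently.

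Tnfrsf26, a decoy receptor of the tumour necrosis factor receptor family known in mice (gene ID 244237, chromosome 7, 143607685 to 143627845), had 43.7, 50.4 and 57.5 CPM in mutant replicates, against 74.4, 121 and 125 CPM in wild-type replicates. All mutant libraries lie below all wild-type libraries. With the empty vector it had 43.2, 62.0 and 74.0 CPM, close to the mutant values. The log2 difference was -1.03 (SE 0.124, edgeR adjusted p = 5.86e-13), with -0.79 in replicate 1 and -1.26 in replicates 2 and 3. It passed without each of the 9 libraries in turn, with values from -1.26 to -0.97, and level-dependent scaling gave -0.98 (edgeR adjusted p = 0.0734). Tnfrsf26 and Cpa3 were the 2 windows that still passed when shifts were taken out per 20-Mb stretch of a chromosome, with edgeR adjusted p of 0.0348 and 0.0235. Genes of this receptor family lie in a cluster of related copies, so reads may be split between them.

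Glyat, a mitochondrial enzyme that joins glycine to acyl groups (chromosome 19, 12633308 to 12651737), had 19.5, 14.9 and 14.8 CPM in mutant replicates, against 33.1, 62.0 and 64.5 CPM in wild-type replicates. The groups do not overlap, and the empty vector, at 14.1, 12.1 and 13.3 CPM, was as low as the mutant. Its log2 difference was -1.46 (SE 0.247, edgeR adjusted p = 2.90e-06), and H3K4me1 differed in the same direction (-0.98, edgeR adjusted p = 0.00704). Ackr3, an atypical chemokine receptor that takes up CXCL12 (chromosome 1, 90203980 to 90215724), had 11.5, 14.97 and 15.1 CPM in mutant replicates, against 32.4, 29.3 and 31.6 CPM in wild-type replicates. Here too no mutant library reaches a wild-type one, while the empty vector was low in replicate 1 (14.5 CPM) and high in replicates 2 and 3 (36.7 and 33.6 CPM). The log2 difference of Ackr3 was -1.29 (SE 0.263, edgeR adjusted p = 0.000454) in H3K4me2 and -1.20 (edgeR adjusted p = 2.18e-06) in H3K4me1. Neither passed without mutant replicate 1 (edgeR adjusted p of 0.153 for Glyat and 0.234 for Ackr3), and Ackr3 also did not pass without wild-type replicate 1 (-0.77, edgeR adjusted p = 0.293).

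Cyp11a1, which cuts the side chain of cholesterol in steroid synthesis, had 8.71, 26.6 and 25.6 CPM in mutant replicates, against 13.8, 77.7 and 75.3 CPM in wild-type replicates. The groups overlap across replicate sets and not within them. Its log2 difference was -1.16 (SE 0.215, edgeR adjusted p = 5.03e-05), with -0.69 in replicate 1 and -1.58 in replicates 2 and 3. H3K4me1 differed the same way (-0.85, edgeR adjusted p = 0.00769). Lat2, an adaptor in mast cell and B cell receptor signalling, had 44.8, 61.0 and 61.5 CPM in mutant replicates, against 68.5, 133 and 145 CPM in wild-type replicates. All mutant libraries of Lat2 lie below all wild-type libraries (log2 -0.90, SE 0.124, edgeR adjusted p = 1.24e-09). Its empty-vector values of 47.8, 136 and 130 CPM are near the mutant in replicate 1 and near the wild type in replicates 2 and 3. Cyp11a1 and Lat2 passed without each of the 9 libraries in turn.

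Tbxas1, the thromboxane synthase of platelets and macrophages, had 16.1, 51.5 and 52.3 CPM in mutant replicates, against 27.6, 101 and 104 CPM in wild-type replicates. The mutant values were the lower ones in each replicate set (log2 -0.94, edgeR adjusted p = 8.25e-08). Nkg7, a granule protein of natural killer and cytotoxic T cells, had 11.1, 17.2 and 16.96 CPM in mutant replicates, against 23.96, 39.5 and 35.5 CPM in wild-type replicates (log2 -1.17, edgeR adjusted p = 0.00410). Its neighbour Cldnd2 starts 3678 bases away, so their windows can share reads, and it also passed (log2 -0.78, edgeR adjusted p = 3.02e-07). Pecam1, an adhesion molecule of endothelial cells and leukocytes, had 29.4, 15.7 and 17.3 CPM in mutant replicates, against 43.2, 32.1 and 40.8 CPM in wild-type replicates (log2 -0.88, edgeR adjusted p = 0.0129). No library of Nkg7 or Pecam1 crosses between the groups. Tbxas1 and Cldnd2 passed without each library in turn. Nkg7 did not pass without mutant or wild-type replicate 1 (edgeR adjusted p of 0.219 and 0.0589), nor Pecam1 without mutant replicate 1, wild-type replicate 3 or empty-vector replicate 1 (0.239, 0.0935 and 0.320). Further lower windows in both sets include Gpr141, an orphan receptor, Csf2rb2, the beta chain of the mouse interleukin 3 receptor, and gene ID 100861917, which the tables used here do not name.

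Adgre4, an EGF-TM7 adhesion receptor of mouse myeloid cells (gene ID 52614, chromosome 17, 55749984 to 55853662), gave the smallest p among the higher windows in both sets. It had 64.4, 94.7 and 102 CPM in mutant replicates, against 36.5, 29.1 and 34.1 CPM in wild-type replicates. The groups are well apart, and the empty vector, at 53.7, 79.3 and 92.3 CPM, lies nearer the mutant. The log2 difference was 1.22 (SE 0.129, edgeR adjusted p = 3.36e-17), with 0.78 in replicate 1 and 1.67 in replicates 2 and 3. It passed under 10 of 14 other ways of processing. Those it missed include stretch correction (1.22, edgeR adjusted p = 0.0983) and level-dependent scaling (1.27, edgeR adjusted p = 0.992), and it did not pass without mutant replicate 1 (1.41, edgeR adjusted p = 0.0986).

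Tom1l1, an adaptor of endosomes and Src kinases, had 42.5, 45.1 and 38.4 CPM in mutant replicates, against 23.8, 12.7 and 15.2 CPM in wild-type replicates. No mutant library overlaps a wild-type one, and all empty-vector libraries (42.4, 43.9 and 41.1 CPM) match the mutant level (log2 1.18, SE 0.192, edgeR adjusted p = 9.13e-07). H3K4me1 was also higher in mutant cells (0.76, edgeR adjusted p = 0.0276). Dlk1, an imprinted gene for a Notch-related membrane protein, had 13.3, 20.1 and 19.6 CPM in mutant replicates, against 7.16, 2.16 and 2.89 CPM in wild-type replicates. All mutant libraries lie above all wild-type libraries, and the empty vector matched the mutant in replicate 1 (14.2 CPM) and stood between the groups in replicates 2 and 3 (7.07 and 6.43 CPM). Its log2 differences were 1.95 (SE 0.383, edgeR adjusted p = 0.000186) in H3K4me2 and 1.89 (edgeR adjusted p = 8.10e-07) in H3K4me1. The edgeR adjusted p without mutant replicate 1 was 0.165 for Tom1l1 and 0.0523 for Dlk1, and without empty-vector replicate 1 it was 0.109 for Dlk1.

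The paired immune receptor genes Pilra and Pilrb2 lie close together on chromosome 5 and are related copies, so their reads may be shared. Pilrb2 had 74.3, 35.0 and 32.5 CPM in mutant replicates, against 33.9, 20.5 and 21.2 CPM in wild-type replicates (log2 0.90, edgeR adjusted p = 3.83e-05). Within each replicate set the mutant is higher, and mutant replicate 3 lies below wild-type replicate 1. Pilra gave 1.35 (edgeR adjusted p = 0.0206). Without mutant replicate 1 the edgeR adjusted p was 0.234 for Pilrb2 and 0.268 for Pilra, which also lost its call without empty-vector replicate 1 (0.499). Pde7b, a phosphodiesterase for cyclic AMP on chromosome 10, fell just outside the limit of 0.5, with 81.2, 61.9 and 58.0 CPM in mutant replicates, against 32.6, 43.1 and 46.5 CPM in wild-type replicates. Its log2 differences were 1.28 in replicate 1 and 0.43 in replicates 2 and 3 (0.85 over both, edgeR adjusted p = 8.25e-08), and it was named after its values were seen. The remaining higher windows in both sets were the homeobox gene Irx3, the adenylyl cyclase gene Adcy3, the channel genes Kcnk12, Cacnb2 and Asic4, the beta-secretase gene Bace1, the hormone gene Stc1, and Zfyve28, Sgip1, Lrrc4b and Parm1.

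**Figure D3:**
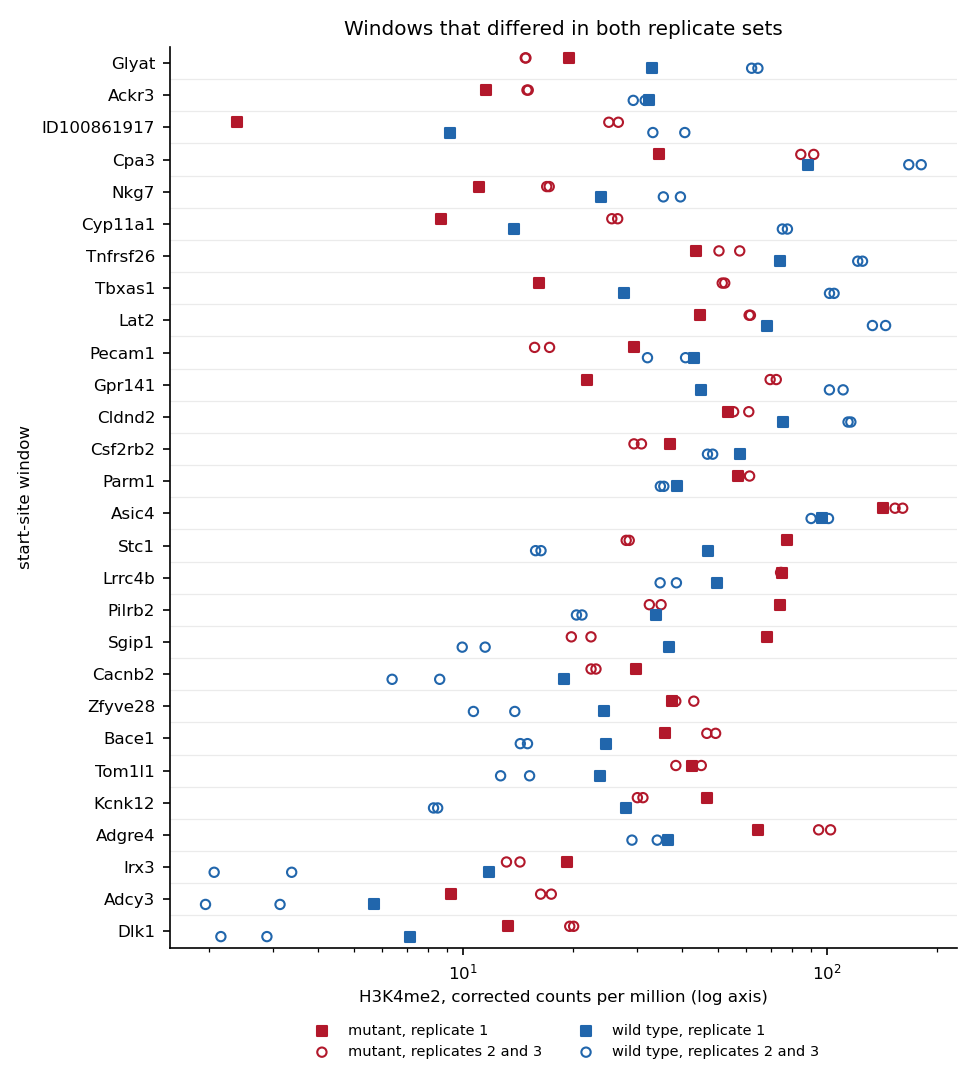
H3K4me2 in corrected CPM (horizontal axis, log scale) of 28 windows with an edgeR adjusted p under 0.02 among those that differed by at least 0.5 in both replicate sets, 1 row per window. Filled squares are replicate 1 and open circles replicates 2 and 3, mutant above wild type within each row. In Adgre4 the mutant libraries lie between 64.4 and 102 and the wild-type libraries between 29.1 and 36.5.

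The empty vector placed these 30 windows differently in the 2 sets. In replicate 1 it lay nearer the mutant at 13 of 16 higher and 14 of 14 lower windows, and in replicates 2 and 3 at 8 of 16 and 8 of 14. Over all calls its mean was nearer the mutant at 51 of 96 higher and 67 of 85 lower windows. The share over all windows tested was not taken. The lower calls include 33 windows from the end of chromosome X, described below. There the empty vector was nearer the mutant at 33 of 33 in replicates 2 and 3, so the lower windows are not separate cases. The empty vector shares the fit that estimated the spread, so it is no independent control of the calls.

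The largest differences came from replicates 2 and 3. By the rule for named windows the 15 largest increases in mutant cells were at Gypc, Dlk1, Ptpn3, Kcnj2, Sobp, Adcy3, Ttc39c, Mindy4, Ptk2, Dlx4, B3glct, Dlx4os, Irx3, Gcnt4 and Sema3a, with log2 differences of 2.07 for Gypc, 1.95 for Dlk1 and 1.87 for Ptpn3 at the top. The smallest p of all, at Brinp1, a neuronal gene, fell outside the rule (74.8, 55.3 and 58.2 CPM in mutant replicates, against 74.9, 5.73 and 6.36 CPM in wild-type replicates, log2 1.51, edgeR adjusted p = 3.73e-19), and it is named after its values were seen. In Brinp1 the replicate 1 libraries are level and the groups overlap there. Gypc, the red cell membrane protein glycophorin C, had 5.67, 33.7 and 33.6 CPM in mutant replicates, against 4.81, 3.02 and 1.97 CPM in wild-type replicates. The gain is seen in mutant replicates 2 and 3, and the 2 replicate 1 libraries are close (log2 0.20 in replicate 1 and 3.72 in replicates 2 and 3, edgeR adjusted p = 0.000225). Ptpn3, a tyrosine phosphatase, had 11.6, 59.6 and 53.9 CPM in mutant replicates, against 9.65, 3.57 and 3.49 CPM in wild-type replicates, and the empty vector had 11.2, 35.6 and 36.6 CPM (log2 1.87, edgeR adjusted p = 1.40e-06). Without mutant replicate 1 neither passed (edgeR adjusted p of 0.0772 for Gypc and 0.234 for Ptpn3), and Gypc did not pass without empty-vector replicate 1 (0.110).

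Dlx4, a homeobox gene whose window overlaps that of its antisense neighbour Dlx4os, had 12.7, 30.6 and 32.3 CPM in mutant replicates, against 10.6, 1.87 and 1.98 CPM in wild-type replicates. The wild-type libraries of replicates 2 and 3 are the low ones, and the empty vector had 10.3, 35.7 and 31.1 CPM (log2 1.61, edgeR adjusted p = 0.00122). Ptk2, which encodes focal adhesion kinase, showed the same order, with 6.05, 38.7 and 31.2 CPM in mutant replicates, against 5.64, 3.07 and 2.58 CPM in wild-type replicates and 5.60, 27.7 and 24.8 CPM in the empty vector (log2 1.62, edgeR adjusted p = 0.00528). Sema3a, an axon guidance signal, and the glycosyltransferase genes Gcnt4 and B3glct gave log2 differences of 0.24, 0.47 and 0.40 in replicate 1 and of 2.98, 3.00 and 2.99 in replicates 2 and 3. None of these 5 passed without mutant replicate 1 (edgeR adjusted p 0.210 to 0.259).

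Among the decreases named by the rule, the microRNA genes Mir34c and Mir34b, known targets of p53, were the largest. They share a transcript and start 452 bases apart, and the window of Hoatz lies within 1484 bases, so the 3 calls rest on largely the same reads. The mature microRNAs in the RefSeq table (GRCm38.p6, chromosome 9, minus strand) are shown with the seed, bases 2 to 8, in capitals.
mmu-miR-34c-3p: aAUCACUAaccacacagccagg
mmu-miR-34b-3p: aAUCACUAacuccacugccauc
mmu-miR-34b-5p: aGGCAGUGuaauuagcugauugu

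The 3p arms share the seed AUCACUA, and the 5p arm of miR-34b has GGCAGUG. H3K4me2 over Mir34c was 14.96, 4.59 and 5.46 CPM in mutant replicates, against 17.4, 42.7 and 46.5 CPM in wild-type replicates. The wild-type libraries of replicates 2 and 3 are the high ones, and the empty vector (13.4, 6.40 and 6.87 CPM) follows the mutant. The log2 difference was -1.86 (SE 0.340, edgeR adjusted p = 3.35e-05), with -0.25 in replicate 1 and -3.17 in replicates 2 and 3. Dtx4, a Deltex ubiquitin ligase of Notch signalling, repeated this order with 41.8, 12.3 and 13.8 CPM in mutant replicates, against 51.1, 80.8 and 66.0 CPM in wild-type replicates (log2 -1.64, edgeR adjusted p = 3.14e-14). Its window was the only named one with a wild-type Snai1 peak and no mutant peak within 5 kb. Dtx4 (chromosome 19, 12466329 to 12502179) lies near Glyat (12633308 to 12651737), also a lower call. Whether these 2 calls are separate cases was not tested. Esr2, which encodes oestrogen receptor beta, had 16.6, 3.78 and 4.24 CPM in mutant replicates, against 17.9, 25.3 and 25.1 CPM in wild-type replicates (log2 -1.59, edgeR adjusted p = 0.00385). Without mutant replicate 1 the edgeR adjusted p was 0.224 for Mir34c, 0.252 for Dtx4 and 0.236 for Esr2, and Esr2 did not pass without empty-vector replicate 1 (0.524).

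The other decreases named by the rule were Hoatz, Glyat, Ackr3, Nkg7, Tnfrsf26, the F-box gene Fbxw10, Lat2, Pecam1, Cldnd2, the RNA-binding protein gene Rbpms and Tnip3, an inhibitor of NF-kappa-B signalling. Tnip3 had 43.3, 26.1 and 24.5 CPM in mutant replicates, against 44.2, 59.0 and 65.0 CPM in wild-type replicates (log2 -0.67, edgeR adjusted p = 0.00350). Its replicate 1 libraries are level and those of replicates 2 and 3 well apart. Tnip3 passed without each library in turn, but under only 4 of the 14 other ways of processing. In all, 87 of the 181 windows (53 higher, 34 lower) met the conditions of the rule, and 33 of the 181 start within 10 kb of another called window.

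Whole chromosomes differed between the constructs in replicates 2 and 3 and hardly in replicate 1. Before correction, chromosome 8 lay 0.30 above the genome-wide median of the log2 difference in H3K4me2 of replicates 2 and 3 and 0.44 above in H3K4me1. Chromosome 2 lay 0.21 and 0.24 above, and chromosome 17 lay at -0.40 and -0.28. In replicate 1 chromosome 18 was low, at -0.16 in H3K4me2 and -0.18 in H3K4me1, and the other chromosomes lay between -0.03 and 0.03 in H3K4me2. The pairs of replicates 2 and 3 gave 0.31 and 0.36 for chromosome 8 and -0.38 and -0.33 for chromosome 17, against 0.01 and 0.03 in the pair of replicate 1.

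The H3K4me2 and H3K4me1 medians of the 20 chromosomes in replicates 2 and 3 had a correlation of 0.92 (Pearson, a description over chromosomes of the same cells). Windows with at least 100 counts gave 0.46 for chromosome 8, 0.25 for chromosome 2, 0.22 for chromosome 19 and -0.22 for chromosome 17. A different number of copies of a chromosome and a different level of the mark per copy cannot be told apart in these counts. Without the correction 139 windows passed (74 higher, 65 lower), and 135 of them were among the 181.

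**Figure D4:**
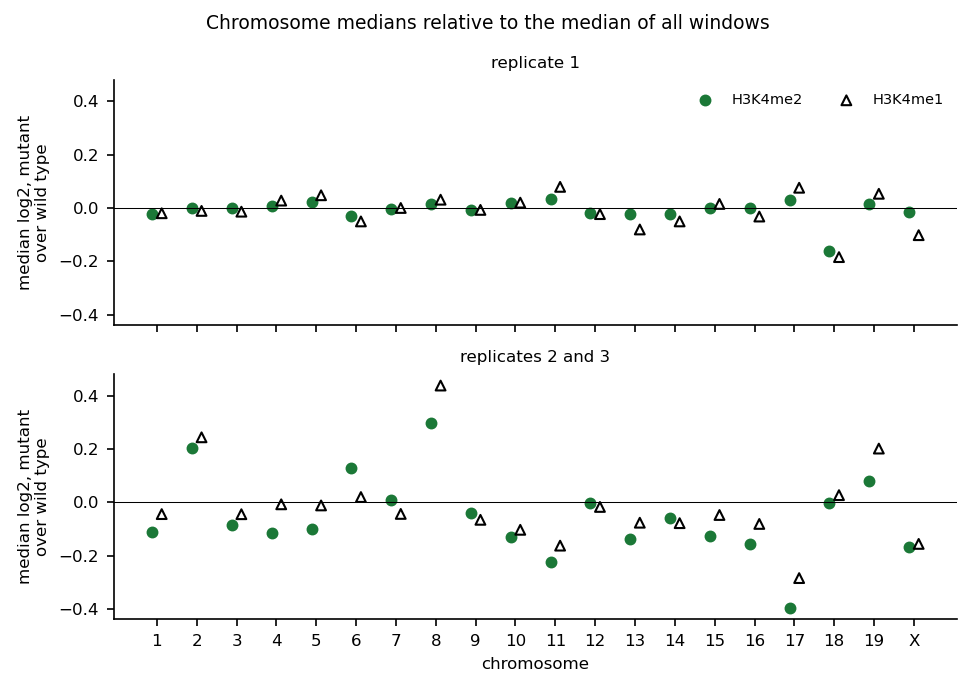
Median log2 difference, mutant over wild type, of each chromosome (vertical axis) relative to the median of all windows, in replicate 1 above and replicates 2 and 3 below. Circles are H3K4me2 and triangles H3K4me1. Chromosome 8 lies at 0.30 and 0.44 and chromosome 17 at -0.40 and -0.28 in replicates 2 and 3.

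A block at the end of chromosome X accounted for many of the lower calls. Of the 85 lower windows 35 lay on chromosome X, and 33 of these lay beyond 120 Mb, in a region with 294 tested windows. They include Smc1a, a cohesin subunit, Rbbp7, a histone chaperone subunit, and Huwe1, a ubiquitin ligase. Smc1a (chromosome X) had 121, 65.0 and 72.8 CPM in mutant replicates, against 118, 133 and 138 CPM in wild-type replicates and 114, 63.2 and 59.0 CPM with the empty vector (log2 -0.55, edgeR adjusted p = 0.00528). Replicate 1 shows no gap, and in replicates 2 and 3 the wild-type libraries are the high ones (log2 -1.06). Its neighbour Ribc1 starts 133 bases away and shares its reads, and without mutant replicate 1, wild-type replicate 3 or empty-vector replicate 1 the edgeR adjusted p of Smc1a was 0.234, 0.0645 and 0.828. The windows named on chromosome X were chosen after their values were seen.

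The 33 windows had a median difference of -0.02 in replicate 1 and -0.98 in replicates 2 and 3, and H3K4me1 gave -0.96 there, negative at 33 of 33. The empty vector was nearer the mutant at 33 of 33 in replicates 2 and 3. Over all windows of the stretches 120 to 140, 140 to 160 and 160 to 180 Mb, the median in replicates 2 and 3 was -0.21, -0.43 and -0.70 in H3K4me2 and -0.53, -0.59 and -0.75 in H3K4me1. The correction by whole chromosomes leaves such a block in place. With shifts taken out per 20-Mb stretch the log2 difference was -0.29 for Smc1a and -0.17 for Rbbp7, against -0.55 for each before. That fit left 0 higher and 2 lower windows in the whole genome, with 524 at an unadjusted p under 0.05. Elsewhere folds moved little (Adgre4 1.22, Gypc 2.03, Glyat -1.44) while the prior degrees of freedom became 11.3, so the lost calls are not particular to chromosome X. A copy number of the region and a local level of the mark cannot be told apart. Eda2r, the ectodysplasin receptor gene, lies outside the block on chromosome X and gave 38.9, 7.45 and 5.09 CPM in mutant replicates, against 37.2, 52.5 and 51.8 CPM in wild-type replicates (log2 -1.77, edgeR adjusted p = 3.80e-10). Its replicate 1 libraries are level, those of replicates 2 and 3 far apart, and without mutant replicate 1 it did not pass (-2.58, edgeR adjusted p = 0.234).

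Windows near Snai1 peaks passed about as often as windows without one when both directions were counted together. The directions differed, since most calls near a peak were lower in mutant cells and most calls without a peak were higher. Neither comparison was tested. The deposited lists hold 12037 peaks for the mutant and 2929 for the wild type, of which 11921 and 2838 overlapped no empty-vector peak. Distance was taken from the start site for the 18434 kept windows with a known one, and otherwise from either gene end. Windows of genes with peaks in both lists within 5 kb numbered 1529, with 2 higher and 7 lower (0.589%). Those with mutant peaks alone numbered 4904, with 4 higher and 23 lower (0.551%), those with wild-type peaks alone 124, with 0 higher and 1 lower, and those with neither 17854, with 86 higher and 51 lower (0.767%). The median log2 difference was -0.05, -0.05, -0.04 and 0.07 in these 4 classes. The classes differ in level, at 80.3, 72.9, 73.5 and 4.54 CPM, and the calls were not compared at equal level. In level bin 4, counted from the lowest, the medians were 0.09 with both peaks, 0.07 with mutant peaks alone and 0.15 with neither. In bin 5 they were -0.04, -0.04 and -0.02. In each of the 3 highest level bins every class had a median between -0.06 and -0.04. Of the 30 windows that differed in both sets, 25 had no Snai1 peak in either list within 5 kb, and 4 (Asic4, Cyp11a1, Lat2 and Cldnd2) had a mutant peak only.

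Gene lists chosen with earlier results of these data known shifted little, and their members mostly did not pass. Over all windows tested the median log2 difference was 0.01, and 13731 of 26018 were positive. The list of H3K4 methyltransferases and demethylases had a median of -0.07 with 23 of its 25 windows negative, and 0 passed. Its medians were 0.06 in replicate 1 and -0.22 in replicates 2 and 3, of opposite sign. Kdm5c, an X-linked H3K4 demethylase, came nearest (-0.41, edgeR adjusted p = 0.0824). Kdm5c lies in the block at the end of chromosome X described above. Its log2 difference was 0.04 in replicate 1 and -0.85 in replicates 2 and 3. With shifts taken out per stretch of a chromosome it was -0.16. Whether Kdm5c differs apart from the block was not tested. Of the 30 cell cycle windows 24 were below 0 and 0 passed, with a median of -0.06 over both sets, 0.10 in replicate 1 and -0.24 in replicates 2 and 3. Cdkn1c, an imprinted inhibitor of the cycle, gave -0.60 (edgeR adjusted p = 0.509). Both lists hold windows of high level, where the same opposition of the sets was seen over all windows.

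Among lineage lists, 1 of 29 erythroid and megakaryocytic windows passed, against 0.696% of all windows, namely Sptb, the beta spectrin of red cells. Sptb had 32.8, 42.3 and 46.0 CPM in mutant replicates, against 24.3, 16.4 and 11.5 CPM in wild-type replicates (log2 1.00, SE 0.217, edgeR adjusted p = 0.00138). The groups do not overlap, and the empty vector lies between at 29.7, 34.5 and 28.7 CPM. The list median was 0.10, with 0.01 in replicate 1 and 0.24 in replicates 2 and 3. Sptb did not pass without mutant replicate 1 (1.36, edgeR adjusted p = 0.202). Gata1, the erythroid master factor, gave 0.61 (edgeR adjusted p = 0.856). In the mast cell and basophil list Cpa3 alone passed among 20, against 0.696% of all windows. The summed CPM of that list was 470 to 532 in mutant libraries and 530 to 683 in wild-type libraries. Much of that gap is Cpa3 itself, since the other 19 windows summed to 435 to 446 CPM in mutant libraries and 442 to 501 CPM in wild-type libraries. The list median was -0.01, with -0.18 in replicate 1 and 0.39 in replicates 2 and 3. The part of other mast cell markers in the Cpa3 result was not tested.

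Of 30 epithelial windows 1 passed, against 0.696% of all windows. Ocln, the tight junction protein occludin, had 25.6, 6.46 and 6.49 CPM in mutant replicates, against 21.7, 35.6 and 32.0 CPM in wild-type replicates. The sets disagree in direction, with 0.20 in replicate 1 and -2.35 in replicates 2 and 3 (log2 -1.28, edgeR adjusted p = 0.00874). Without mutant replicate 1 or empty-vector replicate 1 Ocln did not pass (edgeR adjusted p of 0.244 and 1.0). The list had a median of 0.02 with 17 positive. In the mesenchymal list 0 of 27 passed, and its median of 0.18 came from replicates 2 and 3 (0.51, against -0.19 in replicate 1), the set in which windows of low level had positive medians. Pdgfra, a growth factor receptor in that list, gave 0.76 (edgeR adjusted p = 0.197).

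Of 28 interferon response windows 1 passed, against 0.696% of all windows. It was Rsad2, which encodes the antiviral enzyme viperin. Rsad2 had 44.3, 13.8 and 15.1 CPM in mutant replicates, against 39.3, 57.5 and 52.8 CPM in wild-type replicates (log2 -0.85, edgeR adjusted p = 0.00102), again with the replicate 1 libraries close. Nkg7 was the 1 of 27 lymphoid windows and Pecam1 the 1 of 14 endothelial windows that passed, against the same 0.696%. A single member in lists of this size says little about the list. In the stem and progenitor list 0 of 30 and in the myeloid list 0 of 41 passed, with medians of -0.02 and 0.02. Lmo2, a bridging factor of the blood stem cell complex, had 12.7, 60.9 and 60.8 CPM in mutant replicates, against 11.4, 22.5 and 22.3 CPM in wild-type replicates (log2 0.87, edgeR adjusted p = 0.0710). Mpo, the neutrophil peroxidase, had 122, 83.9 and 77.3 CPM in mutant replicates, against 112, 170 and 175 CPM in wild-type replicates (log2 -0.49, edgeR adjusted p = 0.0640). In both the gap lies in replicates 2 and 3. Of 20 Lsd1 complex and partner windows and 27 housekeeping windows 0 passed, with medians of -0.01 and -0.01.

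**Figure D5:**
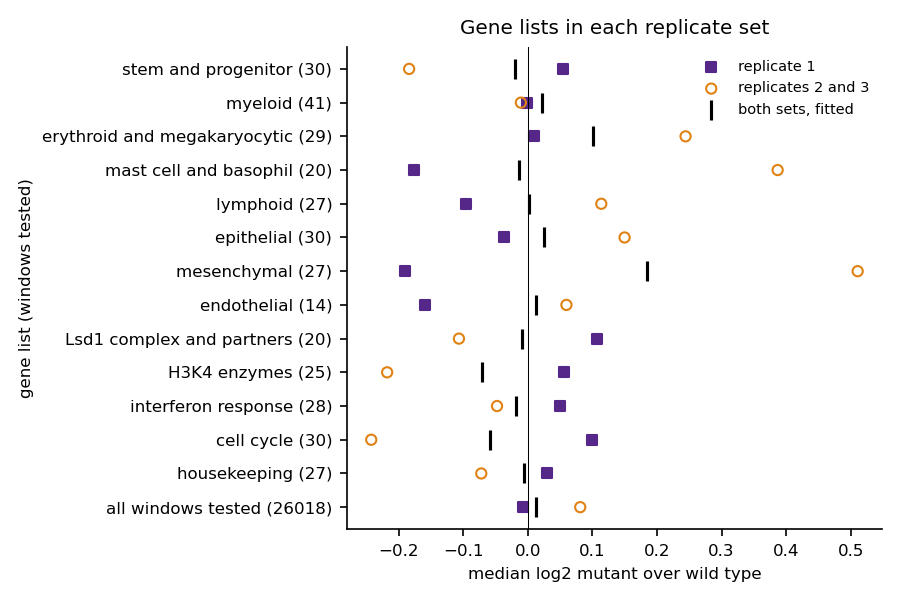
Median log2 difference, mutant over wild type (horizontal axis), of each gene list with the number of windows tested. Squares are replicate 1, circles replicates 2 and 3, and bars the fit over both. The cell cycle list lies at 0.10 and -0.24 and the mesenchymal list at -0.19 and 0.51.

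The second mark gave fewer calls. In H3K4me1 81 of 25893 windows passed (0.313%), and 23 of the 181 H3K4me2 windows (14 higher, 9 lower) were among them. At 176 of the 181 the sign was the same in both marks, against 61.1% of windows tested in both. By set, the median H3K4me1 difference of the 96 higher windows was 0.27 in replicate 1 and 1.17 in replicates 2 and 3. That of the 85 lower windows was 0.13 in replicate 1, opposite to the call, and -0.95 in replicates 2 and 3. Both marks come from the same cells, and their differences over all windows had a correlation of 0.73 in replicates 2 and 3 and 0.51 in replicate 1. Of the 30 windows that differed in both replicate sets, 8 also passed in H3K4me1, and in these its sign was the same in both sets. The lower 4 were Ackr3, Glyat, Cyp11a1 and gene ID 100861917, with H3K4me1 differences of -0.97, -0.40, -0.35 and -2.55 in replicate 1 and of -1.45, -1.55, -1.27 and -0.52 in replicates 2 and 3. The higher 4 were Dlk1, Tom1l1, Stc1 and Pilra, with replicate 1 differences of 0.91, 0.52, 1.00 and 1.10. In replicates 2 and 3 they had 2.96, 1.01, 0.47 and 0.24. Cpa3, Lat2 and Nkg7 gave 0.14, 0.05 and 0.02 in H3K4me1, and the difference between the marks was not tested.

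At the genes of the factors themselves no window passed. Snai1 (chromosome 2, GRCm38) can gain reads from vector cDNA in mutant and wild-type cells. Its window had 56.6, 30.8 and 28.3 CPM in mutant replicates, against 32.9, 57.8 and 43.6 CPM in wild-type replicates and 26.6, 36.5 and 27.3 CPM with the empty vector. The mutant is the higher in replicate 1 and the lower in replicates 2 and 3, with log2 differences of 0.75 and -0.78 and 0.02 over both (SE 0.176, edgeR adjusted p = 1.0). Kdm1a had 63.6, 68.3 and 68.8 CPM in mutant replicates, against 56.3, 78.0 and 73.3 CPM in wild-type replicates (log2 0.01, SE 0.124, edgeR adjusted p = 1.0). Gfi1b had 98.0, 117 and 130 CPM in mutant replicates, against 91.0, 131 and 129 CPM in wild-type replicates (log2 -0.01, SE 0.130, edgeR adjusted p = 1.0). For Kdm1a and Gfi1b the groups overlap in full. Gfi1 had 13.1, 16.5 and 18.4 CPM in mutant replicates, against 20.3, 17.99 and 15.5 CPM in wild-type replicates (log2 -0.34, SE 0.277, edgeR adjusted p = 1.0), while the empty vector reached 43.7 and 37.8 CPM in replicates 2 and 3.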

How the data were processed

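The authors' deposited table gives raw counts per gene window, from Subread alignments and featureCounts per the submitters' processing notes, and its name states 5 kb around start sites of mm10. Of 27095 rows, 25204 had a symbol in RefSeq (GRCm38.p6), 31 equal to an earlier row and 20 without reads were left out, and 25169 kept rows had a chromosome. Counts were tested with edgeR 4.0.16 (R 4.3.3, TMM, filterByExpr, Benjamini-Hochberg, two-sided) over 9 H3K4me2 libraries, with replicates 2 and 3 of a construct summed, a batch term and offsets for chromosome shifts, taken from windows with a mean of at least 20 counts. CPM are TMM-scaled and chromosome-corrected with a prior count of 2 on the log2 scale. Precision is set by the counts and the number of libraries. DESeq2 1.42.0 was an alternative. The deposited peak lists (MACS2 per the submitters' processing notes) give the authors' fold enrichment and -log10 q per peak, 1 list per construct, whose samples are labelled technical replicates. An alternative kept peaks with a deposited -log10 q of at least 10. All columns of the count table matched samples. The batch term set replicate 1 apart from replicates 2 and 3 by their numbers, and the main test used no other pairing by number.

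The members and lists were chosen with earlier results of these data known. Named windows are Snai1, Kdm1a, Gfi1 and Gfi1b, and up to 15 per direction with the largest fold among those that passed with the same sign in both sets, groups that do not overlap and at least 2 times the silent-family CPM, and list members that passed (up to 4 per direction) or up to 2 with the smallest p. Predicted genes are not named, and an item withheld for evaluation is not reported here.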

Additional observations from a re-analysis of the deposited data

Results flagged for a closer look

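The Snai1 window moved in opposite directions in the replicate sets. The log2 difference, mutant over wild type, was 0.78 in the pair of replicate 1, -0.91 in the pair of replicate 2 and -0.62 in the pair of replicate 3 when each pair was scaled by itself. This difference between the sets was not tested, since replicate 1 has 1 library per construct. Of 18 values looked at in this way, the windows of 4 genes, the medians of 13 lists and that of the silent families, this was the only one with at least 0.25 in each pair.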

How the results depend on the processing

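Counts of windows that passed depend strongly on the processing. Against 96 higher and 85 lower windows, DESeq2 size factors gave 68 and 33, column totals 198 and 140, scaling on silent families 5 and 10, the DESeq2 Wald test 6 and 8, shifts of 20-Mb stretches 0 and 2, and wild-type and mutant libraries only 35 and 20. Level-dependent scaling, chosen after seeing the data, gave 0 and 0 (1013 at an unadjusted p under 0.05), and a robust spread, also chosen later, 53 and 44. Without the replicate block 0 and 0 passed (2208 unadjusted), with replicate number as a block 36 and 21, with batch and unsummed libraries 46 and 25, and with replicates 2 and 3 alone 7248 and 6345. Samples of one number deviated with correlations of -0.04, -0.19 and 0.14. These gave no sign of pairing by number and cannot show that it is absent. Leaving out one library gave 9 to 257 higher and 20 to 362 lower. Without replicate 1 of a construct the lone sample of the other set is assumed to vary like the rest. No filter on low counts and no chromosome correction stayed within 1.5 times.

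No window passed under 12 or more of the 14 other settings, and 11 passed under 10 or more. These 11 are Cpa3 and Tnfrsf26 (11 each) and Adgre4, Cldnd2, Cyp11a1, Gpr141, Lat2, Pde7b, Pilrb2, Tbxas1 and Tom1l1 (10 each).

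Windows that did not pass changed sign near 0. Snai1 gave -0.079 with silent families, -0.028 with wild-type and mutant libraries only, -0.20 with or without the replicate block, -0.21 with batch unsummed, -0.78 in replicates 2 and 3 alone, -0.0017 with chromosome shifts from windows of at least 100 counts, and -0.72 to 0.13 without one library. Kdm1a gave -0.12 with silent families, -0.035 with no chromosome correction, -0.031 with the replicate block, -0.030 with batch unsummed, -0.034 with shifts from at least 100 counts, -0.045 without the block, -0.14 in replicates 2 and 3 alone and -0.13 to 0.022 without one library. Gfi1b gave 0.062 with column totals, 0.057 with level-dependent scaling, 0.098 with no chromosome correction, 0.076 with stretches, 0.073 in replicate 1 alone and -0.11 to 0.031 without one library. Gfi1 gave 0.050 in replicates 2 and 3 alone and -0.41 to 0.27 without one library. In replicate 1 alone the sign turned for Mpo (0.082), Ocln (0.20), Pdgfra (-0.16), Kdm5c (0.043), Rsad2 (0.15), Cdkn1c (0.18), Smc1a (0.024) and Eda2r (0.056). The median of windows without a Snai1 peak was 0.40 in replicates 2 and 3 alone and 0.039 to 0.32 without one library. With at least 100 counts chromosome 19 lay at 0.22 and chromosome X at -0.069. Without the replicate block 0 of the windows that passed also passed in H3K4me1, against 23. Depth limits small differences at windows near the silent level, and the cause of each change was not tested.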
